A study of Oryza sativa with 4 samples.

Results

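Brassinosteroids are steroid hormones that promote cell elongation, leaf bending and plant height, and rice plants that cannot make or sense them are dwarf with erect leaves. The hormone is made from sterols by a chain of cytochrome P450 enzymes and is bound at the cell surface by the receptor kinase BRI1 with its co-receptor BAK1. Without the hormone, the GSK3-like kinase GSK2 phosphorylates and restrains the transcription factor BZR1 and the GRAS-family protein DLT, and with the hormone this brake is released. In rice, BZR1 binds the promoter of DLT, and active signalling represses the genes of hormone synthesis.

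The 9 genes described here were chosen by locus and make up 9 of the 55986 gene models counted. Signalling is represented by BRI1 (LOC_Os01g52050), BAK1 (LOC_Os08g07760), GSK2 (LOC_Os05g11730), BZR1 (LOC_Os07g39220) and DLT (LOC_Os06g03710). Synthesis is represented by the P450 genes DWARF4 (LOC_Os03g12660), D11 (LOC_Os04g39430), D2 (LOC_Os01g10040) and BRD1 (LOC_Os03g40540). RNA came from whole 7-day-old rice seedlings, either wild type (WT, the japonica cultivar Dongjin) or mre11, a mutant with a T-DNA insertion in an intron of the DNA repair nuclease gene Mre11. There were 2 samples per genotype, each pooled from 3 plants, and the mutant stands for 1 insertion line. Reads were counted per gene, both genotypes had the same age, and the labels name no treatment. The labels do not say whether the samples of a genotype were grown separately, so the p-values measure only the spread between these pools of plants.

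The libraries held between 12753324 and 19004825 counts on genes, with the smaller totals in WT. Mre11 (LOC_Os04g54340), the mutated gene, had 306 and 471 counts in WT and 132 and 118 counts in mre11. As a check of the tissue, the leaf gene family of the light-harvesting protein LHCB1 (KEGG identifier K08912) summed to 4089 and 6171 CPM in WT and 7996 and 12703 CPM in mre11, where CPM is the count brought to a common library size with edgeR's TMM factors. The small subunit of Rubisco (K01602) summed to 3594 and 5795 CPM in WT and 2753 and 5809 CPM in mre11. The light-harvesting protein LHCA1 (K08907) was at 1244 and 2019 CPM in WT and 1455 and 2157 CPM in mre11. LHCB1 was higher in both mre11 libraries than in both WT libraries, while Rubisco and LHCA1 overlapped between genotypes. Leaf RNA was abundant in all 4 libraries and was higher in replicate 2 than in replicate 1 of both genotypes, and its part in the results below was not tested. Of the 24470 genes that passed the filter on low counts, edgeR's quasi-likelihood test called 2930 higher and 2277 lower in mre11, where a call asks for an adjusted p-value under 0.05 together with a 2-fold difference or more. Without WT replicate 1 these counts were 1782 and 1493, and without WT replicate 2 they were 1668 and 1583. Higher genes made up 56.3% of these calls, against 68.9% when libraries were scaled by their totals alone. Over all tested genes, log2 fold changes had a median of 0.03 with TMM and of 0.19 with the totals alone, and each value below is to be read against this shift.

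Among the 9 genes, DLT stood out with a large rise in mre11, while D2 fell by less than 2-fold and the other 7 did not pass the test. All 9 passed the filter on low counts. Under the rule for a call, 1 gene (DLT) was higher and none (0) was lower by edgeR's test. The background share of this call among all tested genes was 21.3%, with 12.0% higher and 9.31% lower, so that a count of 1 gene of 9 is near the background. Without the fold threshold, DLT was higher and D2 lower, where 37.1% of all tested genes were called (18.8% higher and 18.3% lower). At an unadjusted p-value under 0.05 in the same edgeR fit, 4 of the 9 genes differed (DLT, D2, D11 and BZR1), against 48.4% of all tested genes, so this count too is near the background. The mre11 libraries lay wholly above the WT libraries for 2 genes (DLT and BZR1) and wholly below for 4 (BRI1, DWARF4, D11 and D2), and the groups overlapped for 3 (BAK1, GSK2 and BRD1). Over all tested genes, 73.2% did not overlap (37.5% with mre11 above and 35.7% with mre11 below), so a count of 6 of 9 is near the background. The median log2 fold change of the 9 genes was 0.01. With 2 against 2 libraries, an exact permutation test of a single gene cannot give a two-sided p-value below 0.33, and each p-value below rests on the spread that edgeR shares across genes.

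**Figure D1:**
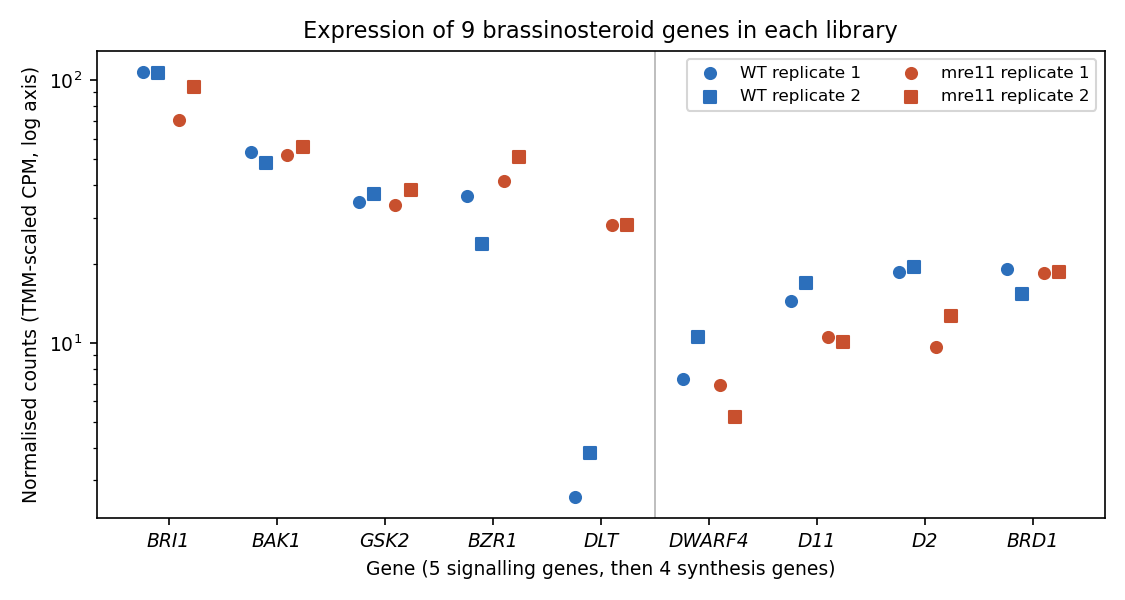
TMM-scaled CPM on a log axis of the 9 genes in each of the 4 libraries (blue, WT; orange, mre11; circles, replicate 1; squares, replicate 2), with 5 signalling genes left of the line and 4 synthesis genes right of it. DLT lay at 2.60 and 3.82 CPM in WT and at 28.2 CPM in both mre11 libraries, while BAK1, GSK2 and BRD1 overlapped between genotypes.

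DLT, which acts as a positive regulator of the response, was the member with the largest difference. It had 31 and 60 counts in WT and 584 and 497 counts in mre11. The exact 95% counting intervals of the WT counts were 21.1 to 44.0 and 45.8 to 77.2, and those of the mre11 counts were 538 to 633 and 454 to 543. Both mre11 libraries were thus far above both WT libraries. These intervals cover counting error only. After scaling, DLT stood at 3.21 ± 0.858 CPM (SD, n = 2) in WT and 28.2 ± 0.0258 CPM (SD, n = 2) in mre11. Its log2 fold change was 3.12 (standard error 0.241, edgeR adjusted p = 0.00115), an 8.68-fold rise with a 95% interval of 5.81 to 13.0. Whole seedlings were sampled, so more cells that express DLT and more DLT RNA per cell cannot be told apart. Among all tested genes, 325 (1.33%) had a larger fold change. Of 4059 other tested genes with a mean log2 CPM within 0.5 of that of DLT, 31 had a larger one.

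The rise of DLT also changed its place among the 9 genes. Levels of different genes were compared per length, with the RPKM values that the authors deposited (counts scaled by gene length and library total). In WT, DLT was the lowest of the 9 genes at 0.78 and 1.18 RPKM. In mre11 it ranked 6 of 9 at 9.91 and 9.33 RPKM, just below BRD1 at 10.05 and 9.53 RPKM, from which it did not differ beyond the spread between libraries. GSK2, the kinase that phosphorylates DLT protein, had 22.2 and 16.0 times the RPKM of DLT in the WT libraries and 1.98 and 2.25 times in the mre11 libraries. For BZR1 these ratios were 30.9 and 13.7 in WT and 3.23 and 3.99 in mre11. Both ratios compare RNA only, and both were smaller in each mre11 library than in each WT library. The RPKM of DLT ranked at the 11.1 and 15.0 percentiles of all tested genes in the WT libraries and at the 53.1 and 54.0 percentiles in the mre11 libraries.

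**Figure D2:**
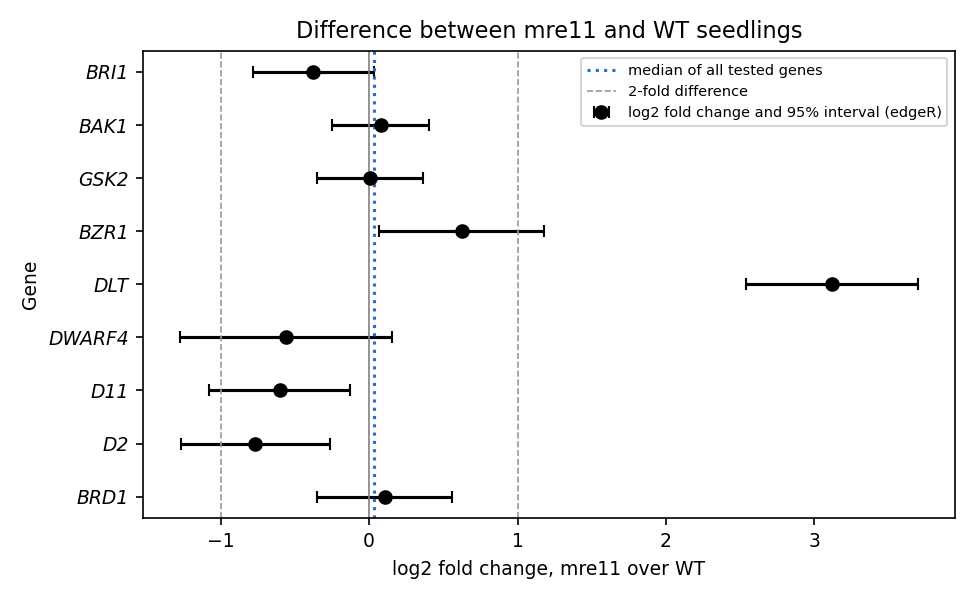
Log2 fold change of each gene, mre11 over WT, with its 95% interval from the edgeR fit (n = 2 libraries per genotype), the 2-fold lines and the median of all tested genes (0.03). The interval of DLT (2.54 to 3.70) lies beyond the 2-fold line, that of D2 (-1.27 to -0.27) lies below 0 but crosses the 2-fold line, and those of BAK1, GSK2 and BRD1 include 0 and lie within the 2-fold lines.

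BRI1, the hormone receptor, was the most abundant of the 9 genes per length in WT, with 25.4 and 25.7 RPKM. It had 1280 and 1668 counts in WT and 1462 and 1652 counts in mre11, which correspond to 107.5 and 106.1 CPM against 70.6 and 93.9 CPM. The mre11 values were below both WT values but lay further apart than the WT values did. The log2 fold change of -0.38 (standard error 0.170, edgeR adjusted p = 0.125) did not pass the test, and its 95% interval ran from 58.0% to 102.1% of the WT level. Without mre11 replicate 2, the log2 fold change of BRI1 was -0.60 and passed (edgeR adjusted p = 0.0275).

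BAK1 encodes the kinase that pairs with BRI1 when the hormone is bound. Its values were 53.5 and 48.3 CPM in WT and 51.8 and 55.5 CPM in mre11, and the groups overlapped. The log2 fold change was 0.08 (standard error 0.136, edgeR adjusted p = 0.683), with a 95% interval of 84.1% to 132.3% of the WT level. The ratio of BRI1 to BAK1 in RPKM was 1.38 and 1.51 in the WT libraries and 0.936 and 1.16 in the mre11 libraries. BRI1 was thus ahead of BAK1 in 3 of the 4 libraries, with mre11 replicate 1 as the exception.

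GSK2, the negative regulator at the centre of the pathway, was the gene nearest to no difference. It had 34.5 and 36.9 CPM in WT and 33.6 and 38.1 CPM in mre11, so that the WT values lay between the mre11 values. Its log2 fold change of 0.01 (standard error 0.148, edgeR adjusted p = 0.980) had a 95% interval of 78.5% to 128.4% of the WT level, and its sign depended on the scaling.

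BZR1, the transcription factor that GSK2 restrains, had 433 and 374 counts in WT and 857 and 899 counts in mre11. This gave 36.4 and 23.8 CPM in WT and 41.4 and 51.1 CPM in mre11. Both mre11 values were above both WT values, but the gap between the genotypes (36.4 to 41.4 CPM) was smaller than the gap between the WT replicates. The log2 fold change of 0.62 (standard error 0.232, edgeR adjusted p = 0.0768) did not pass the test, with a 95% interval of 1.05-fold to 2.27-fold. Per length, BZR1 was the most abundant of the 9 genes in both mre11 libraries (32.05 and 37.21 RPKM) and ranked 2 and 4 in the WT libraries (24.13 and 16.15 RPKM). Whether BZR1 had an adjusted p-value under 0.05 depended on the processing. It passed at 0.79 with library totals alone (edgeR adjusted p = 0.0305), at 0.63 with no filter on low counts (edgeR adjusted p = 0.0135), in both limma fits on RPKM, and without mre11 replicate 1 (0.78, edgeR adjusted p = 0.0491).

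The 4 synthesis genes code for P450 enzymes that act at different steps. DWARF4 (CYP90B2) and D11 (CYP724B1) hydroxylate the sterol side chain at C-22, D2 (CYP90D2) acts on later intermediates, and BRD1 (CYP85A1) is the C-6 oxidase that forms the active hormone castasterone. Per length they were moderate to low in all libraries, between 2.75 and 10.05 RPKM, below BRI1, BAK1, GSK2 and BZR1 in each library. D2 was called lower at any fold, and the log2 fold changes of the 4 genes ran from -0.77 to 0.11 with a median of -0.58.

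D2 had 221 and 305 counts in WT and 200 and 223 counts in mre11, from libraries with larger totals. After scaling, this was 18.6 and 19.4 CPM in WT and 9.66 and 12.7 CPM in mre11. Both mre11 values were well below the WT values, which were close together. The log2 fold change was -0.77 (standard error 0.208, edgeR adjusted p = 0.0299), a fall to 58.7% of the WT level with a 95% interval of 41.5% to 83.1%. This call at any fold rested on small margins. It was lost with library totals alone (-0.61, edgeR adjusted p = 0.0568), in both limma fits on RPKM, and in 3 of the 4 fits that left out a library. The adjusted p-value from edgeR was 0.106 without WT replicate 1, 0.132 without WT replicate 2 and 0.0894 without mre11 replicate 1, with log2 fold changes of -0.81, -0.74 and -0.58.

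D11 showed 14.4 and 16.9 CPM in WT against 10.6 and 10.1 CPM in mre11, again without overlap. Its log2 fold change of -0.60 (standard error 0.198, edgeR adjusted p = 0.0540) was just outside the threshold, with a 95% interval of 47.4% to 91.6% of the WT level. It passed in 1 of the 9 other fits, with RLE scaling (-0.62, edgeR adjusted p = 0.0498), where the adjusted p-values of the 9 fits ran up to 0.193, and in 0 of the 4 fits that left out a library. DESeq2 itself gave an adjusted p-value of 0.0986.

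DWARF4 was the lowest of the synthesis genes, with 87 and 166 counts in WT and 143 and 92 counts in mre11. The values were 7.31 and 10.6 CPM in WT and 6.91 and 5.23 CPM in mre11, so that the lower WT library was close to the higher mre11 library. On the RPKM scale, which lacks the TMM factors, the groups overlapped (3.50 and 5.17 in WT, 3.86 and 2.75 in mre11). The log2 fold change of -0.56 (standard error 0.297, edgeR adjusted p = 0.179) had a wide 95% interval, from 41.4% to 111.1% of the WT level.

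BRD1 was the most abundant of the synthesis genes in 3 of the 4 libraries. Its values were 19.2 and 15.4 CPM in WT and 18.5 and 18.6 CPM in mre11, both within the WT range. The log2 fold change was 0.11 (standard error 0.189, edgeR adjusted p = 0.684), with a 95% interval of 78.6% to 147.5% of the WT level. The ratio of BRD1 to D2 in RPKM was 1.25 and 0.958 in the WT libraries and 2.31 and 1.78 in the mre11 libraries. The summed RPKM of the 4 genes was 24.9 and 26.6 in WT and 22.8 and 21.8 in mre11. BRD1 made up 35.8% and 27.6% of this sum in WT and 44.0% and 43.8% in mre11, while D2 made up 28.7% and 28.8% in WT and 19.0% and 24.6% in mre11. The sum was thus lower and held more BRD1 and less D2 in each mre11 library than in each WT library. RPKM lacks the TMM factors, which were 0.934 and 0.956 in WT and 1.09 and 1.03 in mre11. The size of the fall in the sum therefore depends on the scaling. The sum and the shares are descriptions and were not tested.

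**Figure D3:**
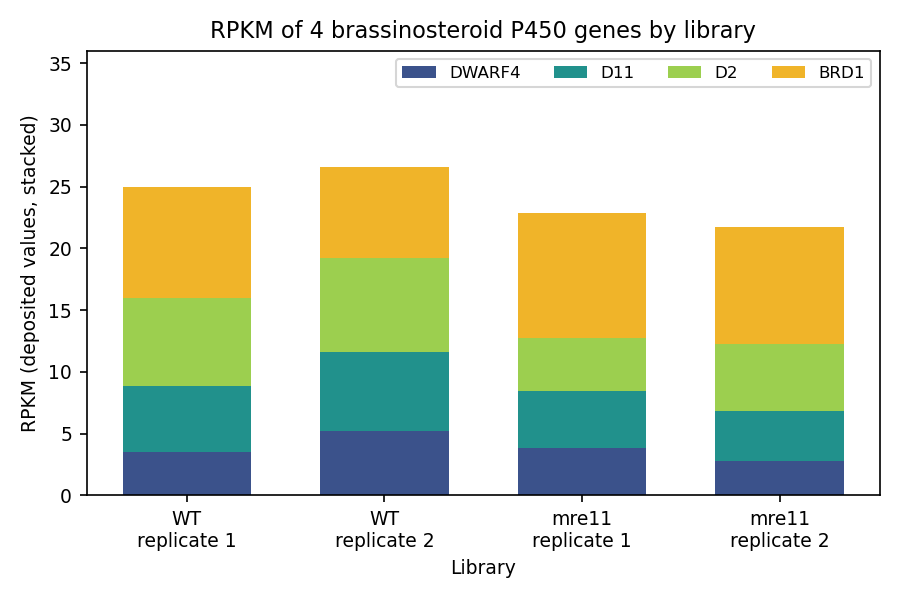
Deposited RPKM of DWARF4, D11, D2 and BRD1 stacked for each library, so that the height of a bar is their sum (24.9 and 26.6 in WT, 22.8 and 21.8 in mre11). The BRD1 segment is the largest in both mre11 libraries, at 10.05 and 9.53 RPKM.

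The direction of the differences was compared over 13 other fits, of which 9 changed the test, scaling, filter, unit or block and 4 left out a library. DLT kept its direction and an adjusted p-value under 0.05 in all 13, with log2 fold changes from 2.43 (limma on log2 of RPKM plus 1, where the added value of 1 is large against the WT level) to 3.43 (without WT replicate 2). BRI1, BZR1, DWARF4, D11 and D2 also kept their direction in all 13. BAK1 and BRD1 kept it in 12 of 13, and GSK2 in 9 of 13.

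**Figure D4:**
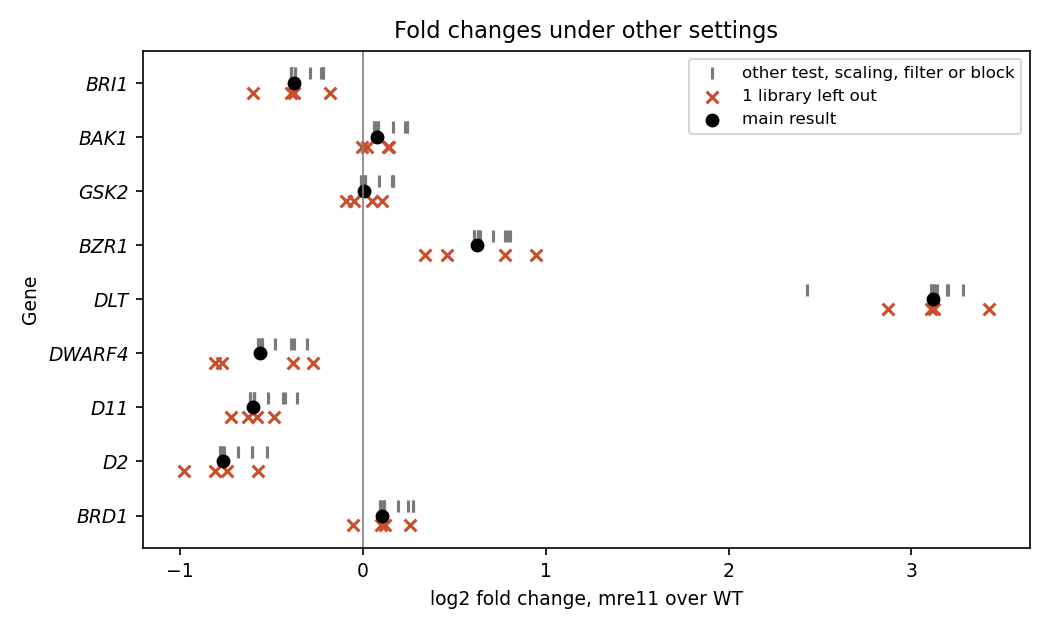
Log2 fold changes (mre11 over WT) of the 9 genes in the main result (black points), in 9 fits with another test, scaling, filter, unit or block (grey marks) and in 4 fits with 1 library left out (orange crosses). All marks of DLT lie between 2.43 and 3.43, whereas those of BAK1, GSK2 and BRD1 lie on both sides of 0.

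The deposited annotation was then searched for other genes of the pathway, by KEGG orthology identifiers of brassinosteroid enzymes and signalling proteins, by the identifiers of the 9 genes, and by GO terms that name brassinosteroids. This gave 80 further loci, of which 69 were tested. By the same rule, 3 of the 69 were called higher and 9 lower, and without mre11 replicate 2 the counts were 5 and 7. Calls thus made up 17.4% of the 69 loci, against 21.3% of all tested genes. Their median log2 fold change was -0.09, against 0.03 for all tested genes. At any fold, 9 were higher and 14 lower, where 18.8% and 18.3% of all tested genes were.

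Other synthesis genes were found by identifiers for the CPD-type and D2-type P450 enzymes, the reductase DET2, the sterol reductase DWARF1 and related enzymes. Of 11 loci, 8 were tested. The edgeR test called 3 of them lower and 0 higher, both with the fold threshold (9.31% lower among all tested genes) and at any fold (18.3% lower). With 8 loci chosen by annotation, nothing particular to the group is read from this count. Their median log2 fold change was -0.49, with a range from -2.99 to 0.48. The largest fall was in LOC_Os12g07360, the only other locus with the identifier of D11 (K12639), whose listed gene length is a short 950 bases. It had 123 and 211 counts in WT and 28 and 29 counts in mre11, a log2 fold change of -2.99 (standard error 0.305, edgeR adjusted p = 0.00164). D11 itself made up 21.3% and 19.6% of the summed RPKM of the pair in WT and 60.3% and 54.4% in mre11. These shares rest on the gene lengths behind RPKM, which are shorter than the listed lengths for both loci. For D11 this length is 2521 bases, against a listed 4467. Whether LOC_Os12g07360 codes for a full enzyme was not tested. D11 rose in share while its own log2 fold change was -0.60. By counts, D11 was above LOC_Os12g07360 in WT too, with 172 and 266 against 123 and 211. The 1 tested locus that shares the identifier of D2 was also lower, at -1.26.

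Inactivation of the hormone was represented by the identifier of the C-26 hydroxylase CYP734A1 (K15639), which the annotation gives to 15 loci and which may cover enzymes with other substrates. Of the 10 that were tested, 1 was called higher and 1 lower, against 12.0% and 9.31% of all tested genes. At any fold, 1 was higher and 2 lower, against 18.8% and 18.3%. The higher one had 0 and 1 counts in the WT libraries, so its fitted log2 fold change of 5.63 depends on the model and is not a measure of size. The lower one was at -1.60, and the median of the 10 loci was 0.12. The lower one also carries GO terms for brassinosteroid metabolism, which the higher one lacks. Another tested locus with these terms was at 0.70 and was not called, and a further one was not tested.

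The signalling identifiers covered 25 further loci. The test covered 23 and called 1 higher and 3 lower, which is 17.4% against 21.3% of all tested genes. At any fold, 3 were higher and 6 lower, against 18.8% and 18.3% of all tested genes. The 3 other GSK3-like kinase loci with the identifier of GSK2 lay close to 0 like GSK2 itself, between -0.23 and 0.09, and none (0) was called, with 0 also called at any fold. GSK2 made up 9.96% and 11.03% of the summed RPKM of this family in WT and 10.4% and 11.7% in mre11, so its paralogs held most of the family's RNA in both genotypes. For BZR1, 3 of 4 loci with its identifier were tested, with log2 fold changes from -1.20 to 0.30 and 1 called lower (9.31% of all tested genes). The share of BZR1 in the summed RPKM of its family was 28.1% and 22.3% in WT and 38.2% and 44.6% in mre11, higher in both mre11 libraries. BRI1 held 65.36% and 65.45% of the RPKM of its family in WT and 59.4% and 70.3% in mre11. The annotation gives BAK1 the identifier K13418, shared with 7 other loci, of which 6 were tested. At any fold, 3 were higher and 1 lower, against 18.8% and 18.3% of all tested genes. With the fold threshold 1 was higher, against 12.0%, and 6 loci are too few to set against these shares. The locus called higher was LOC_Os06g12120, with 98 and 191 counts in WT and 538 and 378 counts in mre11. Its log2 fold change was 1.21 (standard error 0.244, edgeR adjusted p = 0.0115). Reads shared between such copies could move counts among them, which was not tested. Of 6 loci for the BR-signalling kinases (K14500), which pass the signal on from the receptor, 2 were called lower with the fold threshold and 3 at any fold, and 0 were higher by either rule of edgeR's test. Among all tested genes, 9.31% were lower with the fold threshold and 18.3% at any fold, and 6 loci are too few to set against these shares. Their median was -0.27.

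Of 4 loci with identifiers of known targets, 3 were tested, and 1 was called higher and 0 lower by edgeR, with the same counts at any fold. Among all tested genes, 12.0% were higher with the fold threshold and 18.8% at any fold, and 3 loci are too few to set against these shares. The 2 tested loci of the xyloglucan-modifying enzyme TCH4 (K14504) were at 0.27 and 0.79 and did not pass. The D3-type cyclin locus LOC_Os09g02360 (K14505) was the one called, with 51 and 49 counts in WT and 278 and 221 counts in mre11. Its log2 fold change was 1.82 (standard error 0.264, edgeR adjusted p = 0.00419). Of 19 tested loci chosen only by a GO term for brassinosteroid signalling or response, 0 were called higher and 2 lower. This is 10.5% called, against 21.3% of all tested genes. At any fold, 3 were higher and 3 lower (18.8% and 18.3% of all tested genes), and the median was 0.05. The larger of the 2 called falls was in LOC_Os06g48200, annotated with the identifier K08235 of xyloglucan-modifying cell wall enzymes. It had 5310 and 7660 counts in WT and 1742 and 1560 counts in mre11, a log2 fold change of -2.43 (standard error 0.152, edgeR adjusted p = 0.000856). In each of the 4 loci named by identifier the genotypes did not overlap. This was so for 73.2% of all tested genes, and choosing the largest called differences made it likely beforehand. A further 6 loci were chosen only by a GO term for brassinosteroid metabolism or homeostasis, and edgeR called 0 of them with the fold threshold. At any fold, 1 was higher and 0 lower, against 18.8% and 18.3% of all tested genes. The median of the 6 loci was 0.52.

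**Figure D5:**
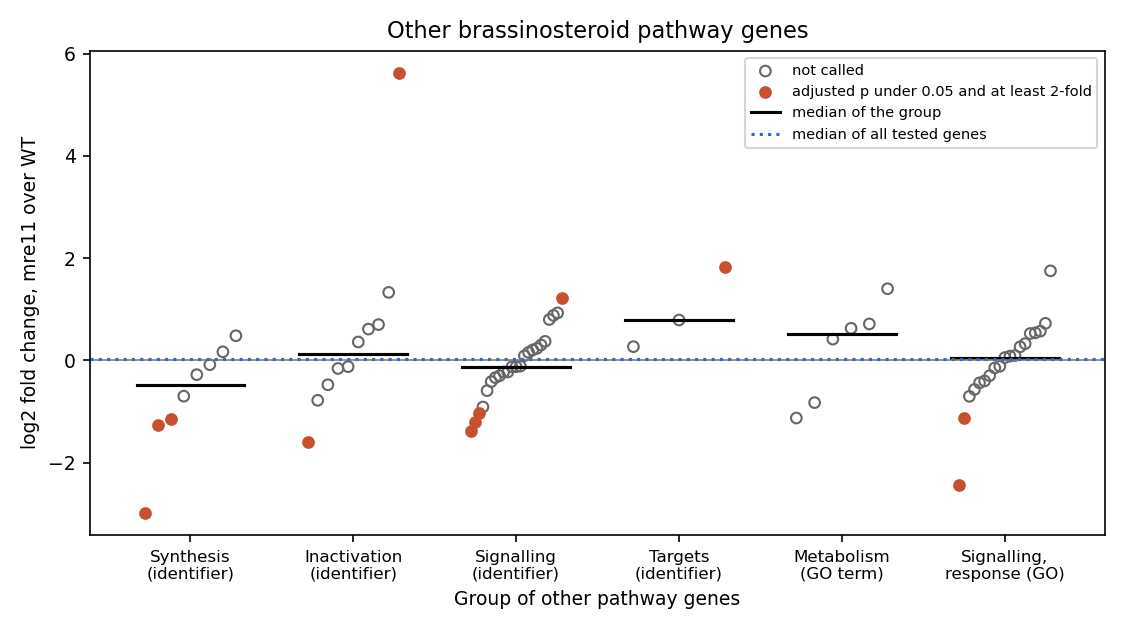
Log2 fold changes (mre11 over WT) of the 69 other tested pathway genes, grouped by identifier or GO term, with filled points for genes called at least 2-fold apart, a black line at the median of each group and a dotted line at the median of all tested genes (0.03). The group of other synthesis genes has a median of -0.49 with 3 of 8 called lower and 0 called higher (9.31% and 12.0% of all tested genes), and the point near 5.63 is the locus with 0 and 1 counts in WT.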

How the data were processed

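The deposited counts are reads per gene model that the authors mapped to release 7.0 of the rice pseudomolecules and counted with HTSeq 0.6.1, without normalization. The aligner and strand setting are not given in the sources used here, so overlapping, antisense and near-identical genes are uncertain. The deposited RPKM values were computed by the authors from these counts. The length they imply equals the listed gene length for BRI1 (3945 bases) and DLT (3102 bases) and is shorter for the other 7 genes.

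The main test was the quasi-likelihood test of edgeR 4.0.16 under R 4.3.3, run without a block after TMM scaling and its default filter (filterByExpr), with Benjamini-Hochberg adjustment over 24470 genes. Standard errors and 95% intervals follow from the fold change and the F statistic. DESeq2 1.42.0, limma 3.58.1 on log2(RPKM + 1) and log2(RPKM + 0.1), other scalings, filters and thresholds, a replicate block and leaving out each library were the alternatives. The scripts were tested on simulated data.

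The 9 members, the other pathway lists, the tests and the naming rule were chosen with earlier results of these data known. The rule named the 9 genes, Mre11, and of the other pathway genes the 2 largest rises and 2 largest falls called whose mean log2 CPM was 1 or more. Other loci are given without an identifier. The names of KEGG identifiers come from general knowledge. Sequences and coordinates were not used here, and a deposited table that repeats the same counts was left out.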

Additional observations from a re-analysis of the deposited data

How the results depend on the processing

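With 2 libraries per genotype, D2, D11, BZR1 and BRI1 stayed under 2-fold and were not called with the fold threshold. Whether their adjusted p-values fell under 0.05 moved with the processing or with single libraries. GSK2, near 0, changed sign to -0.0090 with DESeq2 and -0.0081 with RLE scaling. Among the genes not past the threshold, D11 passed with RLE scaling (-0.62), and BZR1 passed with library totals alone (0.79), with no filter (0.63), with limma on log2(RPKM + 1) (0.78) and with limma on log2(RPKM + 0.1) (0.80). D2 was lost with library totals alone (-0.61) and with these limma fits (-0.53 and -0.61). The cause of these changes was not tested.

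With 1 library left out, the log2 fold changes ran from -0.60 to -0.18 for BRI1, from -0.0037 to 0.14 for BAK1, from -0.0943 to 0.10 for GSK2, from 0.34 to 0.95 for BZR1, from 2.87 to 3.43 for DLT, from -0.81 to -0.27 for DWARF4, from -0.72 to -0.49 for D11, from -0.98 to -0.58 for D2 and from -0.0526 to 0.26 for BRD1. Over all tested genes, 1668 to 2626 were called higher and 1493 to 2275 lower. Among the other pathway genes, 2 to 5 were called higher and 6 to 9 lower, while DLT stayed the 1 member called. In these fits the lone sample of a genotype is assumed to vary like the other genotype.

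With no fold threshold, 1 member was called lower, 9 other pathway genes were higher and 14 lower, and 4594 of all tested genes were higher and 4483 lower. At an adjusted p-value under 0.01, 1614 were higher and 1493 lower. Of the other pathway genes, 5 were higher with library totals alone and 5 with limma on log2(RPKM + 0.1), while 4 were lower with limma on log2(RPKM + 1), where 1336 of all tested genes were lower.

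The replicate block, with numbers shared between genotypes but no stated pairing (correlation of the replicate differences across genes, 0.0158), changed no call of a member. With it, DLT was at 3.14 and D2 at -0.78, 2736 of all tested genes were higher and 2231 lower, and 3 other pathway genes were higher and 10 lower.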
